A study of Mus musculus with 8 samples.

Results

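The hairless gene Hr, the nuclear receptor genes Vdr and Rora, and the numbered histone deacetylase genes Hdac were examined in the skin of 7 day old mouse pups. Members were taken as the rows of the deposited table whose RefSeq accession belongs to Hr, Vdr, Rora or a gene named Hdac and a number. This gave 10 genes, each with 1 probe, of 21766 probes: Hr, Vdr, Rora, Hdac1, Hdac2, Hdac3, Hdac5, Hdac6, Hdac7 and Hdac9. The other 4 genes under the rule, Hdac4, Hdac8, Hdac10 and Hdac11, were not analysed here. Near naked hairless mutants, a strain known for a dominant allele of the hairless locus and a sparse coat, were set against wild type mice on 8 arrays. Each array held both RNAs, labelled Sample (taken as the mutant) and Control (taken as the wild type). There were 5 biological replicates from 1 litter, and no label gives the strain, sex, zygosity or the animal behind an array. With more arrays than animals, some arrays repeat an animal, which makes every p-value here too small. Whole skin holds many cell types, and fewer cells of a type cannot be told apart from less RNA in each cell.

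Hairless is a nuclear protein of skin and brain that binds nuclear receptors and represses their target genes. It recruits histone deacetylases, enzymes that remove acetyl groups from histones and so close chromatin. The vitamin D receptor, encoded by Vdr, and the retinoic acid receptor-related orphan receptor alpha, encoded by Rora, are among the receptors it binds. In skin, loss of either Hr or Vdr lets the first coat of hair form and then blocks its renewal, because the follicle is not rebuilt in the next cycle.

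The windows around the transcription start of Vdr, Rora and Hdac7 are shown because, of the 7 members that passed the filter on missing values described further on, these had the ratios farthest from 0. Each holds 250 bases before and 50 bases after the start, from RefSeq on GRCm38.p6, and is written on the strand of the gene. Capitals mark the nuclear receptor core motif AGGTCA and the GC box GGGCGG on either strand. The E-box CACGTG and the TATA box TATAAA were also searched on both strands and had no match in these windows, and no matches overlapped.
Vdr, chr15:97908247-97908546, minus strand: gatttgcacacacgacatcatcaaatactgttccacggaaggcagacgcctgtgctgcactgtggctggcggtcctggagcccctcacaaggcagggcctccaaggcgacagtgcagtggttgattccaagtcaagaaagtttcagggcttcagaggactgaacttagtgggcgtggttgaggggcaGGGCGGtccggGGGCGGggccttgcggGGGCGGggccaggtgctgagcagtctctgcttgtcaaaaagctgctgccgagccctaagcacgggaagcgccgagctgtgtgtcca
Rora, chr9:68653536-68653835, plus strand: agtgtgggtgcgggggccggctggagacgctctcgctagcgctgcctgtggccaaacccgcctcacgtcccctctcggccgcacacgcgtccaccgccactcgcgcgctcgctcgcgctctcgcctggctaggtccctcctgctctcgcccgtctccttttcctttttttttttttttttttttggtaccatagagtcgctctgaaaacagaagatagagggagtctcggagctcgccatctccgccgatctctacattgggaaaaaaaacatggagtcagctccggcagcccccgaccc
Hdac7, chr15:97814814-97815113, minus strand: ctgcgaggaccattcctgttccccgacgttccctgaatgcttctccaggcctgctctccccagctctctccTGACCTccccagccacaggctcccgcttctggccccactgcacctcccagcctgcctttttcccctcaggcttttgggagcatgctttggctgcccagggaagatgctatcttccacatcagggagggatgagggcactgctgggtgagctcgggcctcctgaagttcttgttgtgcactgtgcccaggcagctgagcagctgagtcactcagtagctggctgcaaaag
The Vdr window holds the GC box 3 times, and 35.7% of the 32851 windows in the table hold it at least once. The Hdac7 window holds the core motif once, on the strand opposite to the gene, and 16.3% of all windows hold it. It is 1 of 4 windows listed for Hdac7 and the only one of them with the core motif, while another holds a GC box. The 16.3% is a share of single windows, so it is not the share expected for a gene with 4. Neither motif is in the Rora window. Windows of 7 of the 10 genes were searched here, with none taken for Hr, Hdac1 or Hdac3. Vdr and Hdac7 are neighbours on chromosome 15, with 2 genes, neither of them coding, between them in that annotation.

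The deposited values are log ratios, read here as log2 of mutant over wild type. Neither the base nor the direction is stated in the sources used here, and the direction is called likely because Sample is the first channel on every array and the mutant stands first in the design. Were it the reverse, each rise given here would be a fall and each fall a rise. Mutant RNA carried Cy5 on arrays 2, 4, 6 and 7 and Cy3 on arrays 1, 3, 5 and 8. The ratios were taken to run the same way on every array, with the dye swap already undone, because the replicate spots of Gapdh, a single transcript, correlated below 0 in 16 of 16 pairs of arrays of opposite orientation (median r = -0.45) and below 0 in 0 of 12 pairs of the same orientation (median r = 0.55). The share of rows with a value ran from 41.3% on array 3 to 88.3% on array 6. The SD of an array ran from 0.57 on array 5 to 1.60 on array 2. A log ratio carries no level, so the labelled tissue could not be checked against its markers. Probes measured on 3 or more of the 4 arrays in both orientations, 11974 in all, were fitted with limma. At an adjusted p below 0.05, 81 (0.676%) were higher and 423 (3.53%) lower in the mutant, against 380 higher and 757 lower after quantile normalization.

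None of the members changed past the test. Of the 10 genes 7 passed the filter, and 0 of these 7 had an adjusted p below 0.05 in limma, where 4.21% of all probes tested did. At an unadjusted p below 0.05 there were 4 of 7, beside 20.5% of all probes. The fitted ratios of these 7 lay above 0 for 5 genes and below 0 for 2. Hr, Hdac2 and Hdac9 had too few values with the mutant in Cy3 to pass, and Hdac9 also with the mutant in Cy5.

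**Figure D1:**
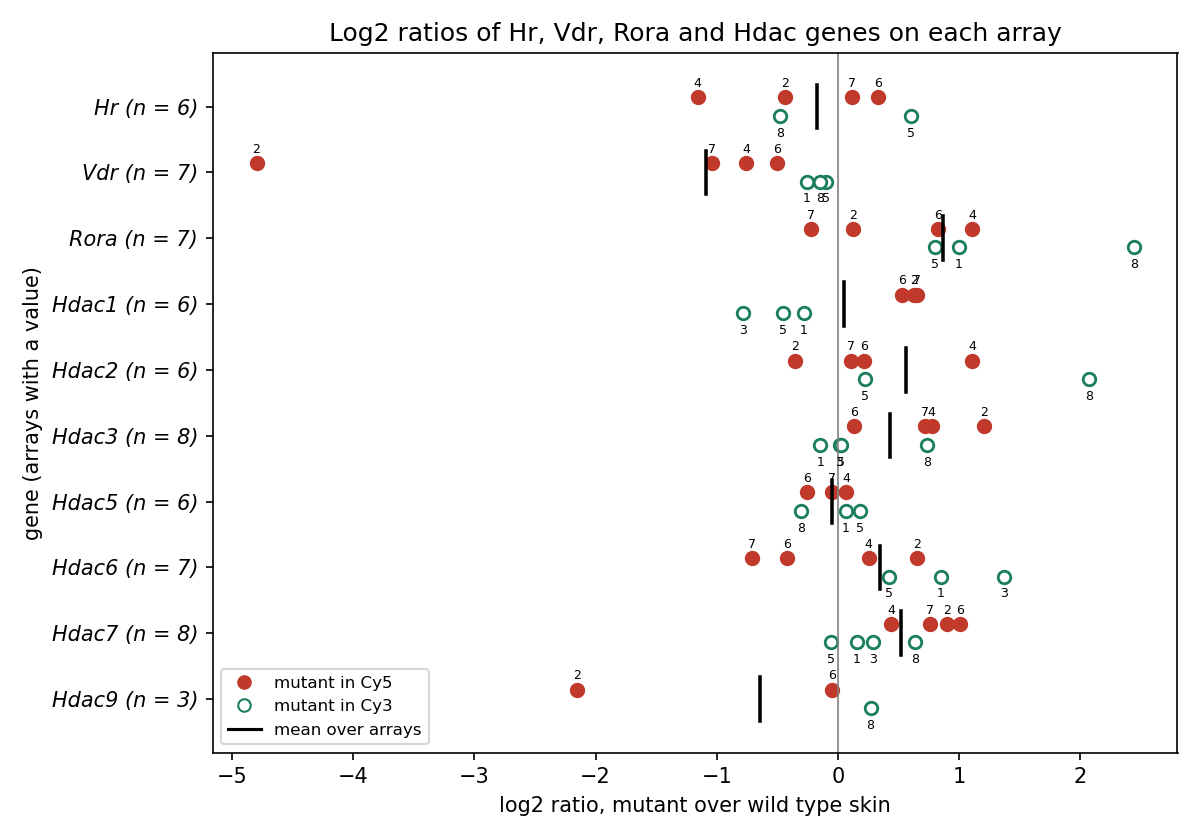
Log2 ratio of mutant over wild type skin for each gene (rows) on each array, with the array number beside the point, filled for mutant in Cy5 and open for mutant in Cy3, and a bar at the mean. Vdr lies below 0 on all 7 arrays that measured it and Rora above 0 on 6 of 7, while Hr straddles 0.

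Hr, the gene of the corepressor itself, had a probe with the accession NM_021877. Its log2 ratio with the mutant in Cy5 was -0.44 on array 2, -1.16 on array 4, 0.33 on array 6 and 0.11 on array 7. With the mutant in Cy3 it was 0.60 on array 5 and -0.47 on array 8. The values lay on both sides of 0 in both orientations, 3 above and 3 below. The mean was -0.17 ± 0.64 (SD, n = 6), and an exact sign-flip permutation test over arrays gave p = 0.594, two-sided. A looser filter, with at least 2 arrays of each orientation, admitted Hr to the fit at -0.11 ± 0.28 (SE, limma, adjusted p = 0.875), with a 95% interval from -0.74 to 0.52. Under that filter 2.34% of probes were called. Within an array, between 11.3% (array 4) and 86.4% (array 5) of probes lay at or below it. Which stretch of the Hr transcript the probe covers is not known here, so these ratios do not check the mutant label.

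Vdr, the receptor of active vitamin D, was below 0 on 7 of 7 arrays. With the mutant in Cy5 its log2 ratio was -4.80 on array 2, -0.76 on array 4, -0.50 on array 6 and -1.04 on array 7. In the other orientation it was -0.26 on array 1, -0.10 on array 5 and -0.15 on array 8, so that the orientations did not overlap, as for 27.7% of all probes tested. Array 2 was far lower than the rest. Of probes with 7 values, 6.07% were below 0 on every array. The fitted ratio was -0.97 ± 0.43 (SE, 7 arrays), a mutant level of 0.51 times that of wild type, with a 95% interval from -1.92 to -0.02, and it missed the threshold (limma, adjusted p = 0.234). Without array 2, and under the looser filter, the ratio was -0.47, with an interval from -0.87 to -0.06 (limma, adjusted p = 0.248). With all arrays under that filter the adjusted p of Vdr in limma was 0.306. Of all probes tested, 3.55% had a fitted ratio as low as that of Vdr with all arrays.

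Rora, a receptor that activates clock and lipid genes and is bound by hairless, went the other way. Its log2 ratio with the mutant in Cy5 was 0.12 on array 2, 1.11 on array 4, 0.83 on array 6 and -0.22 on array 7. With the mutant in Cy3 it stood at 1.00 on array 1, 0.80 on array 5 and 2.44 on array 8. Array 8 was the highest and array 7 was the only one of the 7 below 0. Being above 0 on at least 6 of 7 arrays was found for 11.4% of probes with 7 values. The fitted ratio was 0.94 ± 0.26 (SE, 7 arrays), or 1.91 times the wild type level, with a 95% interval from 0.37 to 1.50 (limma, adjusted p = 0.065). Only 1.93% of probes tested had a fitted ratio as high. The call depended on how the arrays were scaled or weighted: Rora was past the threshold after median and MAD scaling (1.18, adjusted p = 0.0279), after quantile normalization (0.99, adjusted p = 0.0198) and with arrays weighted by their precision (0.83, adjusted p = 0.00937). Under these settings 6.23%, 9.5% and 11.6% of probes were called. Without array 8, and under the looser filter, the ratio was 0.68 (limma, adjusted p = 0.165). With all arrays under that filter the adjusted p of Rora in limma was 0.101.

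**Figure D2:**
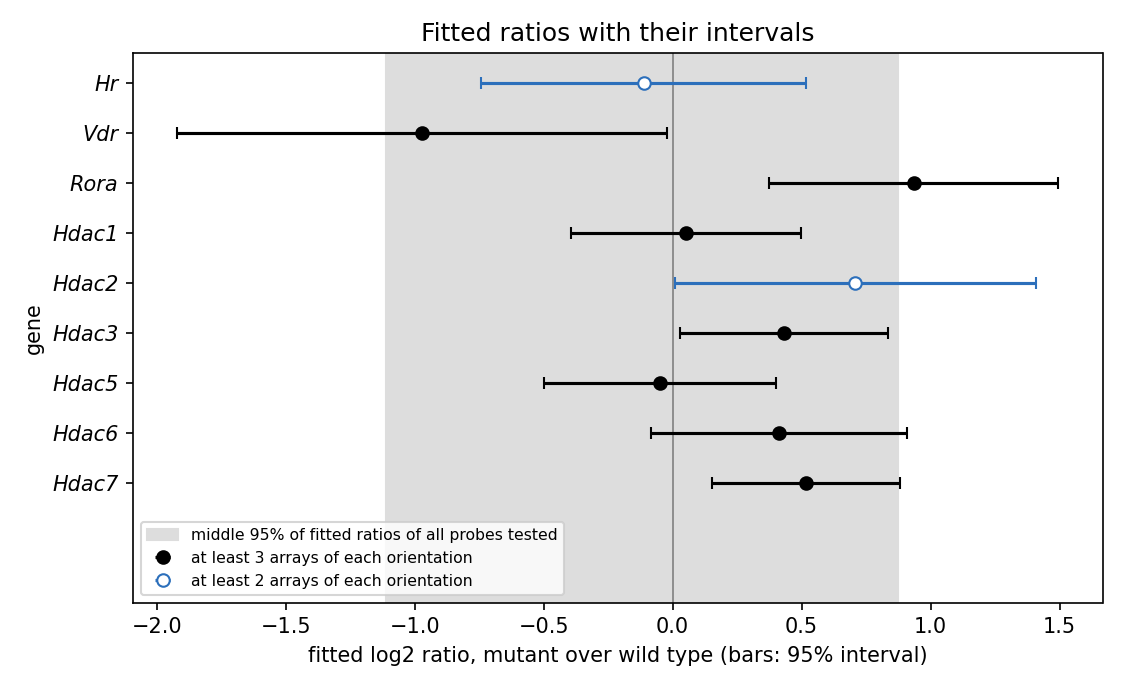
Fitted log2 ratio of mutant over wild type (horizontal axis) with its 95% interval for each gene that could be fitted, filled for the main filter and open for the looser one, over a grey band with the middle 95% of all probes tested. Rora, at 0.94, lies past the upper edge of the band at 0.87, and Vdr, at -0.97, lies inside the lower edge at -1.11.

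Set side by side within an array, where any centring cancels, Rora exceeded Vdr on 7 of 7 arrays. The difference, Rora minus Vdr, was 1.25 on array 1, 4.92 on array 2, 1.87 on array 4, 0.90 on array 5, 1.32 on array 6, 0.82 on array 7 and 2.59 on array 8. Its mean was 1.95 ± 1.44 (SD, n = 7) and its median 1.32. This pair was chosen after its values were seen, so no test is given. By rank, between 91.4% and 97.2% of probes lay at or below Rora on arrays 1, 4, 5, 6 and 8, 52.7% on array 2 and 34.0% on array 7. Vdr ranked below the middle of all 7 arrays, from 1.28% on array 2 to 49.5% on array 8. Hdac7, the neighbour of Vdr, also exceeded it on 7 of 7 arrays, by 0.05 on array 5 up to 5.70 on array 2. That pair too was taken with its values known, and a gene as low as Vdr is exceeded by many, so no test is given.

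**Figure D3:**
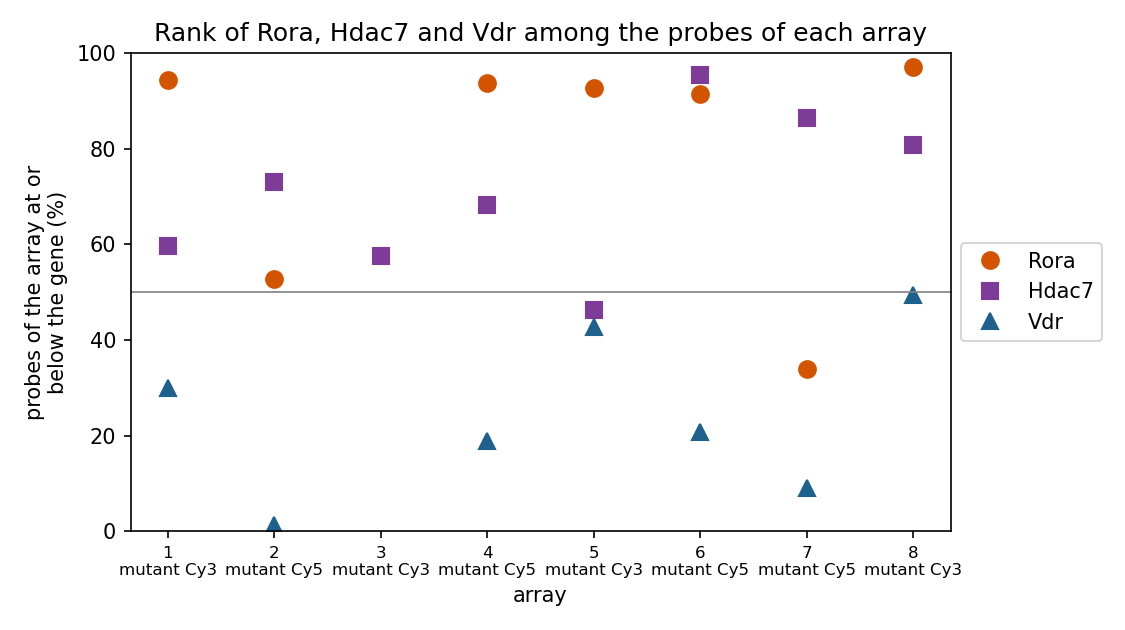
Percent of the probes of each array (vertical axis) with a log2 ratio at or below that of Rora, Hdac7 and Vdr, by array and dye orientation, with a line at 50%. Vdr stays below the line on all 7 of its arrays, down to 1.28% on array 2, and Hdac7 lies above it on 7 of 8.

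The deacetylases of class I work inside nuclear corepressor complexes. Hdac3, the catalytic subunit of the complex that nuclear receptors recruit, had values on all arrays. With the mutant in Cy5 it was 1.21 on array 2, 0.77 on array 4, 0.13 on array 6 and 0.71 on array 7. With the mutant in Cy3 it was -0.15 on array 1, 0.01 on array 3, 0.02 on array 5 and 0.74 on array 8. It was above 0 on 7 of 8 arrays, with array 1 slightly below, and the orientations overlapped. The fitted ratio was 0.43 ± 0.19 (SE, 8 arrays), with an interval from 0.03 to 0.83 (limma, adjusted p = 0.212). With arrays weighted by precision the ratio was 0.22, with an interval from -0.09 to 0.54.

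Hdac1, a partner of Hdac2 in the Sin3 and NuRD complexes, split by the dyes. It was 0.63, 0.53 and 0.66 on arrays 2, 6 and 7, with the mutant in Cy5, and -0.28, -0.78 and -0.45 on arrays 1, 3 and 5, with the mutant in Cy3. The orientations did not overlap, which was so for 27.7% of all probes tested. The mean ratio came to 0.05 ± 0.20 (SE, 6 arrays, limma, adjusted p = 0.914). The dye part, mutant in Cy5 minus mutant in Cy3, was 1.11 ± 0.40 (adjusted p = 0.0959), where 5.34% of all probes had a dye part past the test. With arrays weighted by precision that dye part passed (0.97, adjusted p = 0.0358), as did 25.7% of probes. Read as Cy5 over Cy3, the table would put Hdac1 at 0.56 with the same adjusted p of 0.0959.

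Hdac2 was -0.36, 1.11, 0.22 and 0.11 on arrays 2, 4, 6 and 7, with the mutant in Cy5, and 0.22 and 2.07 on arrays 5 and 8, with the mutant in Cy3. It lay above 0 on 5 of 6 arrays, and arrays 4 and 8 stood well above the rest. Its mean was 0.56 ± 0.88 (SD, n = 6, exact sign-flip permutation test, two-sided, p = 0.219). Without array 8 the mean was 0.26. Under the looser filter it was fitted at 0.71 ± 0.31 (SE, limma, adjusted p = 0.288), with an interval from 0.01 to 1.41.

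Class IIa deacetylases shuttle between nucleus and cytoplasm and bind MEF2 factors. Hdac7 was 0.90, 0.44, 1.00 and 0.76 on arrays 2, 4, 6 and 7, with the mutant in Cy5, and 0.16, 0.29, -0.06 and 0.64 on arrays 1, 3, 5 and 8, with the mutant in Cy3. It was above 0 on 7 of 8 arrays, as were at least as many for 8.88% of probes with 8 values, and the orientations overlapped. The fitted ratio was 0.52 ± 0.17 (SE, 8 arrays), or 1.43 times wild type, with an interval from 0.15 to 0.88 (limma, adjusted p = 0.107). It passed with weighted arrays (0.46, adjusted p = 0.0423). Across all probes tested, 10.8% had a fitted ratio as high.

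Hdac5 stayed closest to 0. Its values were 0.07, -0.25 and -0.05 on arrays 4, 6 and 7, with the mutant in Cy5, and 0.06, 0.18 and -0.30 on arrays 1, 5 and 8, with the mutant in Cy3. No array stood apart and the orientations overlapped. The fitted ratio of -0.05 ± 0.20 (SE, 6 arrays, limma, adjusted p = 0.919) had an interval from -0.50 to 0.40. Hdac9, which also gives rise to a splice form without the catalytic domain, had 3 values, -2.15 on array 2, -0.05 on array 6 and 0.27 on array 8. They lay on both sides of 0, and no test was made.

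Hdac6, a class IIb deacetylase of the cytoplasm that acts on tubulin, was 0.66, 0.25, -0.42 and -0.71 on arrays 2, 4, 6 and 7, with the mutant in Cy5. With the mutant in Cy3 it was 0.85, 1.37 and 0.42 on arrays 1, 3 and 5. Those with the mutant in Cy5 lay on both sides of 0, while all 3 with the mutant in Cy3 were above it, and the orientations overlapped. The fitted ratio was 0.41 ± 0.23 (SE, 7 arrays, interval -0.08 to 0.91, limma, adjusted p = 0.329), with a dye part of -0.93 ± 0.45 (adjusted p = 0.178). Its ratio was 0.21 with arrays weighted by precision and 0.06 on arrays 4 to 8 alone.

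**Figure D4:**
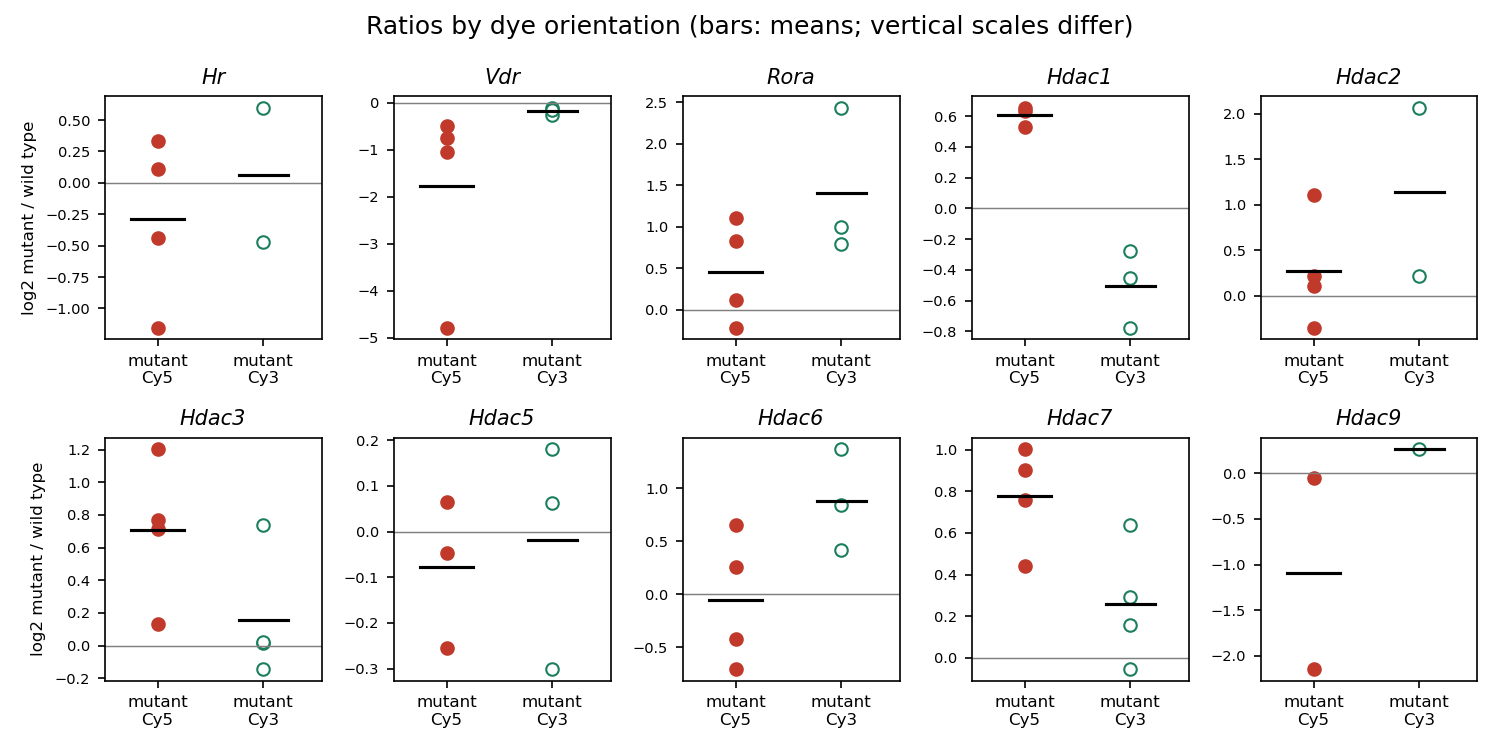
Log2 ratio of mutant over wild type (vertical axis, scaled for each gene) on arrays with the mutant in Cy5 (left, filled) and in Cy3 (right, open), with bars at the means. Hdac1 averages 0.61 when the mutant is in Cy5 and -0.50 when it is in Cy3, whereas both means of Vdr are below 0 and both means of Rora and of Hdac7 are above 0.

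From the Gapdh spots described above, the table was read with the dye swap already undone. The orientation means show how far each gene would change under the other reading. Vdr averaged -1.77 ± 2.03 with the mutant in Cy5 (SD, n = 4) and -0.17 ± 0.08 with the mutant in Cy3 (SD, n = 3). Rora averaged 0.46 ± 0.62 with the mutant in Cy5 (SD, n = 4) and 1.41 ± 0.90 with the mutant in Cy3 (SD, n = 3). Hdac7 averaged 0.78 ± 0.25 where the mutant was in Cy5 and 0.26 ± 0.29 where it was in Cy3 (SD, n = 4 each). The means of each of these 3 genes had the same sign in both orientations. No dye part of a member passed the test in the main fit.

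Read as Cy5 over Cy3, the table would put Rora at -0.48 (adjusted p = 0.217), Vdr at -0.80 (adjusted p = 0.22), Hdac6 at -0.47, Hdac3 at 0.27 and Hdac7 at 0.26 in limma, none past the threshold, where 5.34% of probes were called. The mean of Hdac2 would be -0.20. Read as Cy3 over Cy5, these signs would turn. The directions of Rora, Hdac2 and Hdac6 were thus opposite under the reading as Cy5 over Cy3. Over the 7 Hdac genes the median of the means was 0.41, with 5 above 0, beside a median fitted ratio of 0.05 and 55.0% above 0 for all probes tested. With the table read as Cy5 over Cy3 that Hdac median was -0.03.

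Genes around these members were read from 9 lists of receptors, corepressors, demethylases and target genes. Of 90 genes 45 had a row and 29 were tested, with 19 fitted ratios above 0 and 10 below. The number past the threshold was 0 of 29, where limma called 4.21% of probes. The list of Mef2 genes and that of JmjC demethylases, the enzyme family to which hairless belongs, had no row, and of 7 sirtuins only Sirt1 had one, with values on 5 arrays from -1.11 to 0.88. Of the other receptors that hairless or these receptors pair with, 3 were tested. Rxrb, a dimer partner of the vitamin D receptor, stood at 0.37 ± 0.35 (limma, adjusted p = 0.59), and the thyroid hormone receptor gene Thrb at -0.06 ± 0.25 (limma, adjusted p = 0.917).

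The corepressor complexes had 10 members tested, 7 above 0 and 3 below, with a median of 0.40. Ctbp1, a corepressor that binds short peptide motifs of transcription factors, was highest at 0.78 ± 0.22 (limma, adjusted p = 0.0733) and above 0 on 7 of 7 arrays, as were 2.77% of probes with 7 values. It passed after quantile normalization (0.84, adjusted p = 0.0327) and with weighted arrays (0.81, adjusted p = 0.0101). Sin3a, the scaffold on which Hdac1 and Hdac2 sit, was lowest at -0.36 ± 0.19 (limma, adjusted p = 0.307). Sin3a also split by the dyes, with a mean of 0.38 when the mutant was in Cy5 and -1.10 when it was in Cy3. Its orientations did not overlap, as for 27.7% of all probes tested. The dye part of Sin3a, 1.48 ± 0.38, passed (limma, adjusted p = 0.0451), as did that of 5.34% of all probes, while that of Hdac1 did not. Read as Cy5 over Cy3, Sin3a would stand at 0.74, past the threshold, which is the test of its dye part again and not a second result.

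In the vitamin D list 4 of 11 genes were tested, with a median of -0.10. Spp1, which encodes osteopontin and is induced by vitamin D in bone, was lowest at -0.75 ± 0.28 (limma, adjusted p = 0.161) and below 0 on 7 of 7 arrays. Cyp27a1, a sterol hydroxylase, was highest at 0.07 ± 0.24 (limma, adjusted p = 0.894). Cyp24a1, which breaks down active vitamin D, had a value on 1 array alone. Among clock genes 4 of 9 were tested. Cry1, a repressor of the clock, was highest at 0.65 ± 0.22 (limma, adjusted p = 0.123), above 0 on 6 of 6 arrays, and passed after quantile normalization (0.84, adjusted p = 0.0395) and with weighted arrays (0.66, adjusted p = 0.0281). Arntl, a clock activator whose promoter is a known target of Rora, was lowest at -0.18 ± 0.23 (limma, adjusted p = 0.706), with 3 arrays above 0 and 5 below.

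For the thyroid hormone axis 6 of 11 genes were tested. Klf9, a transcription factor induced by thyroid hormone, was highest at 0.79 ± 0.26 (limma, adjusted p = 0.121) and passed with weighted arrays (0.88, adjusted p = 0.0371), while Thrsp was lowest at -0.32 ± 0.23 (limma, adjusted p = 0.468). Genes reported to respond to hairless had 2 of 7 tested. Casp14, a caspase of the cornifying epidermis, was at 0.33 ± 0.26 (limma, adjusted p = 0.509), with a dye part of 3.01 ± 0.52 (adjusted p = 0.0301). A dye part past the test was found for 5.34% of all probes. Read as Cy5 over Cy3, Casp14 would stand at 1.50, past the threshold, which is the test of its dye part again and not a second result. Sfrp2, a secreted regulator of Wnt signals, was at -0.13 ± 0.26 (limma, adjusted p = 0.822). Beside these ratios, the markers of skin cell types went both ways, also within a list, where 0.676% of all probes were called higher and 3.53% lower. By limma, 1 of 3 keratinocyte markers tested was higher (Krt1, 1.30, adjusted p = 0.0179), as were 1 of 4 fibroblast markers (Vim, 1.17, adjusted p = 0.00493) and 1 of 2 adipocyte markers (Cfd, 1.96, adjusted p = 0.00683). The lowest of the same lists were Ivl at -1.06 (limma, adjusted p = 0.0624), Lum at -0.21 (adjusted p = 0.704) and Lep at 0.43 (adjusted p = 0.302). Lower by limma were 1 of 4 immune markers (C1qb, -1.37, adjusted p = 0.0111) and 1 of 3 nerve markers (Mbp, -0.90, adjusted p = 0.0287). The highest of those lists were Ptprc at 0.57 (limma, adjusted p = 0.233) and S100b at -0.10 (adjusted p = 0.808). The 1 muscle marker tested, Tnnt3, was at -1.23 (limma, adjusted p = 0.0601). Their part in the ratios of the members was not tested.

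**Figure D5:**
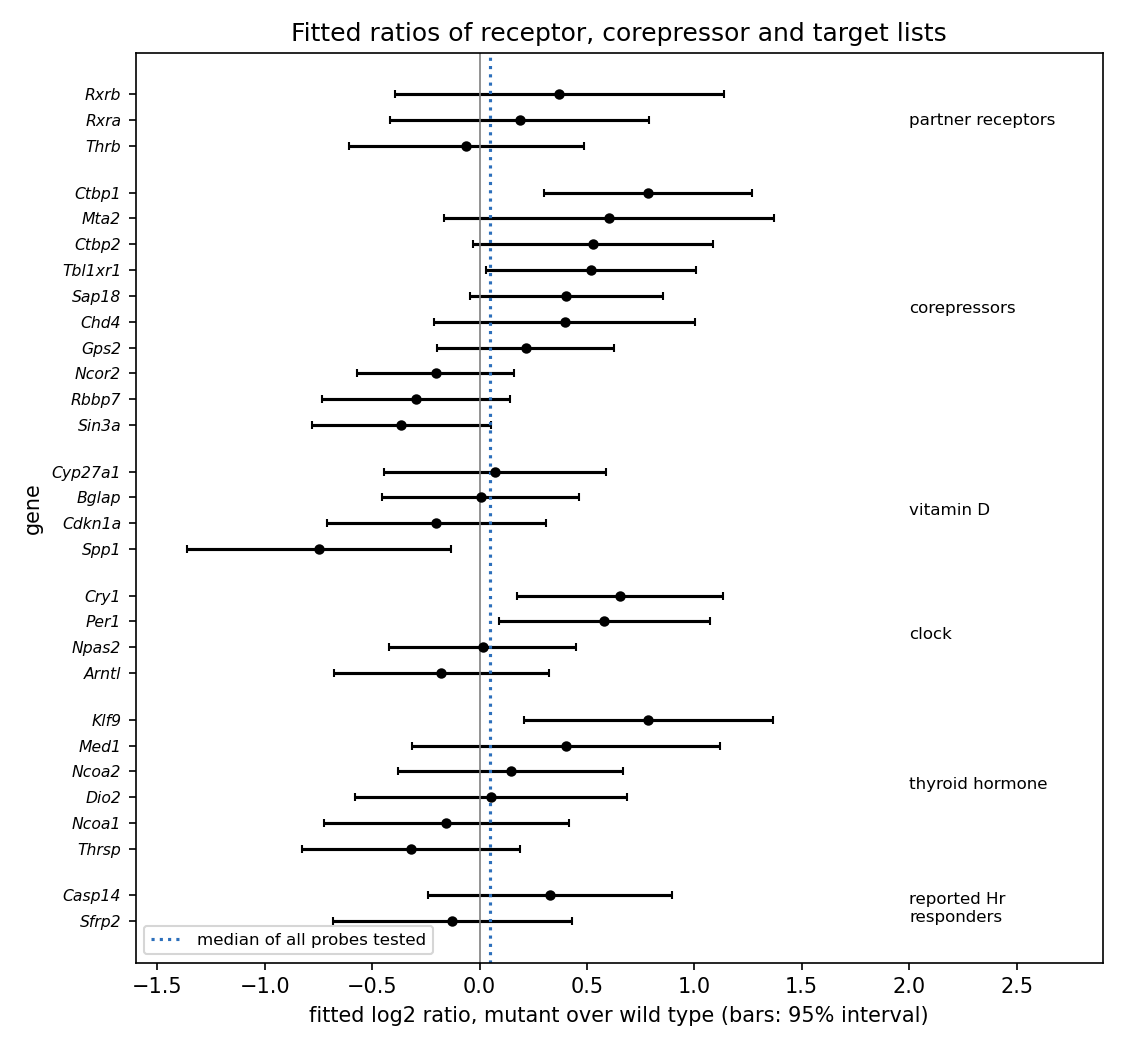
Fitted log2 ratio of mutant over wild type (horizontal axis) with its 95% interval for the 29 tested genes of the receptor, corepressor and target lists, with a dotted line at the median of all probes. Ctbp1, Klf9, Cry1, Per1 and Tbl1xr1 have intervals above 0 and Spp1 has one below, and none of the 29 passed after adjustment. An interval that leaves out 0 is the same as an unadjusted p below 0.05 in limma, found for 20.5% of all probes tested.

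The named genes whose ratios ran most like those of Hr, Vdr and Rora from array to array were ranked by Pearson's r, after each array was centred and divided by its SD. For Hr these were Proc, Lif and Epb41l1, with r of 0.966, 0.965 and 0.965 over 6 arrays among 2849 genes. Without arrays 4 and 5, r was 0.954 for Proc and 0.677 for Lif. For Vdr they were Vsnl1 (r = 0.998), Cnpy2 (0.973) and Chmp1b (0.965), over 7 arrays among 2184 genes. Vsnl1, which encodes a calcium sensor of neurons, was at -5.59 on array 2 and between -1.23 and -0.21 on the other 6 arrays shared with Vdr. Without arrays 2 and 8, those farthest from the median of Vdr, r was 0.993 for Vsnl1 and 0.777 for Chmp1b. For Rora they were Grap2 (r = 0.991), Mtf1 (0.986) and Tcf12 (0.985), over the same 7 arrays. Arrays share their RNA source, orientation and spread, and the best of so many genes over so few points is high by selection, so these are descriptions.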

How the data were processed

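RNA of mutant and wild type skin was compared on 8 two-colour arrays. The values the authors deposited are log ratios, and log2 was assumed since no base is stated; the deposited table was already centred near 0, and how images were read, how ratios were normalized and why values are missing is not given in the sources used here. Dyes were coupled by standard protocols, per the labels. Of 23232 rows, 1235 control spots were left out and 232 Gapdh spots were averaged. Probes were named through a GRCm38.p6 gene table, 6518 by accession and 77 by synonym, and 15171 stayed unnamed. For each probe with values on at least 3 of 4 arrays per orientation, the model held an intercept and a dye term coded +0.5 with the mutant in Cy5 and -0.5 in Cy3 (limma 3.58.1, R 4.3.3, empirical Bayes, Benjamini-Hochberg adjustment over all probes, threshold 0.05), and the script was tested on simulated data. Intensities were not analysed, so the number of arrays limits the precision. The members and lists were chosen with earlier results of these data known. Every member is named. From each other list, genes past the threshold and those with the highest and lowest ratios are named, and 3 most similar genes for each of Hr, Vdr and Rora. Lists were not tested as sets. Alternatives were other filters, scalings, weights, the other reading of the table, named genes alone and arrays left out. Fits with arrays left out used looser filters.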

Additional observations from a re-analysis of the deposited data

Results flagged for a closer look

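Dixon's test set 1 array apart in 3 of the 23 series of ratios examined. Chance alone would do so in about 1 in 20, here 1.15. The array was array 2 in all 3, the one with the widest spread (SD 1.60). The 23 did not take in every series given here, so neither the count nor the shared array holds for all of them. Not among the 3 were Hdac7 minus Vdr, at 5.70 on array 2 and at most 1.80 elsewhere, and 2 list genes high on array 8. These were Mta2, at 2.81 there and at most 0.47 elsewhere, and Per1, at 1.76 there and at most 0.55 elsewhere. Vdr stood at -4.80 there and no lower than -1.04 elsewhere. Spp1 stood at -2.50 there and no lower than -1.12 elsewhere. The difference Rora minus Vdr was 4.92 there and at most 2.59 elsewhere, through the same Vdr value.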

How the results depend on the processing

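The count of probes past the threshold, 504 of 11974, became 1137 (380 higher, 757 lower) with quantile normalization and 1384 (418 higher, 966 lower) with array weights. It was 258 without the dye term and 131 among 3779 named genes alone. Without 1 array it was 144 to 431, but there the filter asked for only 2 arrays of each orientation. Between 12723 and 17912 probes were then tested. With all arrays that filter called 422, so its effect and that of the array left out are not separated. The lowest counts, 144 and 153, were without arrays 6 and 1, and those without arrays 4 and 7 were 212 and 234. The count was 0 on arrays 4 to 8 alone, with a filter looser still (19979 probes tested, 2745 at an unadjusted p below 0.05 in limma). The number of members called, 0, became 1 with MAD scaling, 1 with quantile normalization and 2 with array weights. Rora then stood at 1.18, 0.99 and 0.83, past the threshold, and Hdac7 joined it in the last. With the table read as Cy5 over Cy3, Rora was at -0.48, Hdac6 at -0.47 and the plain mean of Hdac2 at -0.20. Without 1 array, no member was called. Fitted ratios then ran from -1.18 to -0.47 for Vdr, 0.68 to 1.09 for Rora, -0.00528 to 0.12 for Hdac1 and -0.10 to 0.022 for Hdac5. For Hr and Hdac2 plain means over arrays were taken, which do not weight the orientations equally. The mean of Hr ran from -0.32 to 0.0267 and that of Hdac2 from 0.26 (without array 8) to 0.75. Hr, Hdac1 and Hdac5 thus changed sign. With array weights Vdr was at -0.54, Hdac3 at 0.22 and Hdac6 at 0.21, and on arrays 4 to 8 alone Vdr was at -0.45. The median of the Hdac genes was -0.0298 read as Cy5 over Cy3 and 0.11 on arrays 4 to 8 alone. The dye part called 1 member, Hdac1, with array weights. Of the 29 list genes tested, 2 were called after quantile normalization (Cry1 and Ctbp1, where 9.5% of all probes were), 2 read as Cy5 over Cy3 (Sin3a and Casp14, 5.34%) and 3 with array weights (Cry1, Ctbp1 and Klf9, 11.6%). The 2 called as Cy5 over Cy3 are those whose dye part passed in the main fit, by the same test. The cause was not tested in any of these cases. Hr had no fit with values on all 8 arrays or with array weights. Each ratio already pairs mutant with wild type RNA on 1 array. Repeats of an animal over arrays could not be modelled, because no label ties an array to an animal.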
